A study of Mus musculus with 14 samples.

Results

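The genes described here encode chromatin modifiers and remodelers, the enzymes and readers that write, erase or bind marks on histones and DNA or that move nucleosomes. They were taken by symbol from the deposited table of the loss-of-function experiment, using the stems Kdm, Kmt, Setd, Hdac, Sirt, Chd, Smarc, Brd, Arid, Dnmt, Tet, Ino80, Ep400, Prdm, Kat, Prmt and Cbx and 1 further stem. A gene also had to average at least 10 normalized reads in the EZH2 WT tumors and to be missing from the table of the gain-of-function experiment. Of 3533 genes in the table, 37 matched the stems and 35 were kept. Kdm6b was left out by the rule, and Dnmt3b fell under the minimum. The table holds only genes that the authors had called between EZH2 LOF and EZH2 WT tumors, so these genes were selected on the contrast described below. Their differences are therefore given as a description, with a standard error and with no test.

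RNA was sequenced from 14 mouse diffuse pontine tumors in 2 experiments, and the members come from the 7 tumors of the loss-of-function experiment. The 4 EZH2 LOF tumors, numbered 13 to 16, arose in Nestin-Tv-a; p53f/f; Ezh2f/f mice, and the 3 EZH2 WT tumors, numbered 1 to 3, in Nestin-Tv-a; p53f/f; Ezh2wt mice, all of the C57BL/6 strain by the labels. Both groups received the RCAS-Cre virus together with RCAS-PDGF-B, so p53 was deleted in EZH2 LOF and in EZH2 WT tumors alike. The gain-of-function experiment, with 4 EZH2 GOF and 3 EZH2 WT tumors, held 0 of the matching genes in its table of 294 genes. The RCAS viruses are avian retroviruses that enter mouse cells carrying the Tv-a receptor, here driven by the Nestin promoter, and they were delivered by injected chicken DF1 cells. Only infected cells recombine, so host cells within a tumor keep an intact Ezh2. The floxed exons encode part of the catalytic SET domain. By a PCR on fixed tumor sections and cultured neurospheres, the supplement of the study describes their deletion as incomplete. The study's discussion calls it partial by PCR and by RNA-seq, and reports that the histone mark written by EZH2 was almost lost from stained tumors. The age of the mice at collection was not given in the sources used here. No source used here says that each tumor came from a separate mouse, so the spread between tumors may be partly technical.

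EZH2 is the catalytic subunit of PRC2, the Polycomb complex that methylates lysine 27 of histone H3 (H3K27) at silent developmental genes. Chromobox proteins of PRC1 bind that mark, whereas the Trithorax-group methyltransferases of the KMT2 and SETD1 families methylate H3K4 at active promoters and enhancers. Deacetylases, demethylases, nucleosome remodelers and the enzymes of DNA methylation act on the same regulatory regions, and many of their genes are mutated in brain tumors.

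In EZH2 LOF tumors 33 of the 35 genes had the higher mean, and Hdac2 and Kdm1a had the lower one. Values are normalized reads, that is reads counted per gene and divided by the authors' size factor of each library. The groups did not overlap for 30 genes that were higher in EZH2 LOF tumors, a pattern seen in 41.9% of all 3533 genes, and for both genes that were lower, a pattern seen in 44.6%. By sign alone, 48.9% of the table was higher in EZH2 LOF tumors. The median log2 fold change, EZH2 LOF minus EZH2 WT, was 0.67 over the 35 genes and -0.33 over the table, while the median size without sign was 0.67 for the 35 genes and 0.71 for the table. A log2 fold change of at least 1 was reached by 10 of the 35 genes, against 19.3% of the table. The whole table includes genes under the minimum of 10 reads that members had to pass. Of the 3314 listed genes that passed the members' filter, 514 reached it, and their median size without sign was 0.69. Since each gene was listed for passing a test of this contrast, nothing is read from these counts.

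**Figure D1:**
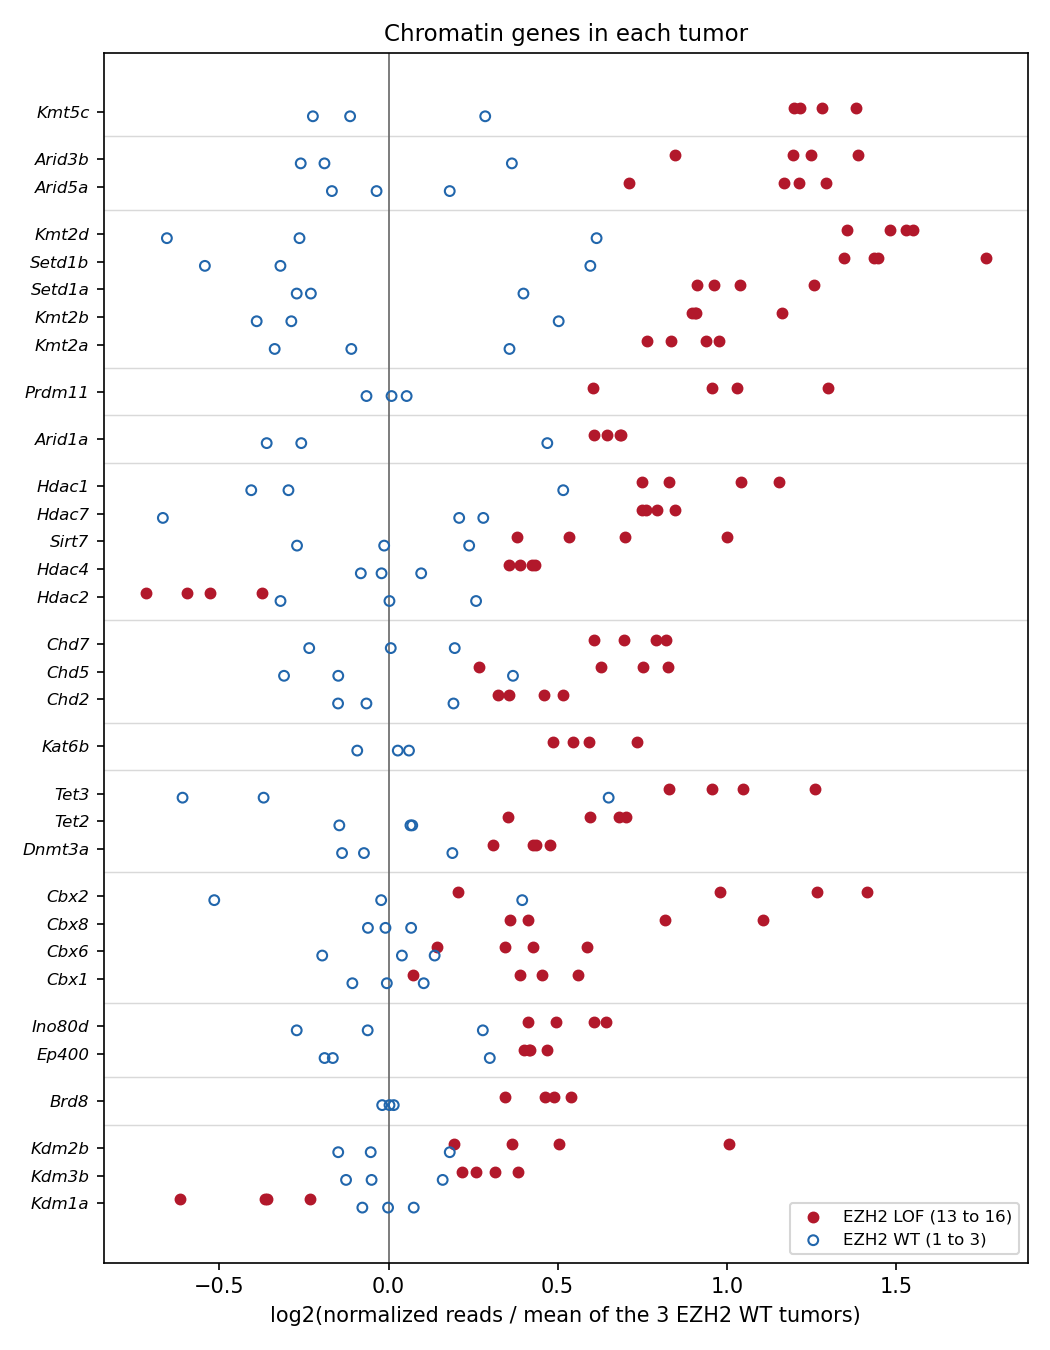
The 32 chromatin genes reported by name, in each tumor, as the log2 ratio of its normalized reads to the mean of the 3 EZH2 WT tumors. Filled red points are the 4 EZH2 LOF tumors, open blue points the 3 EZH2 WT tumors, and grey lines part the families. The red points lie to the right for most genes and to the left for Hdac2 and Kdm1a, and they overlap with the blue ones for Chd5, Cbx1 and Cbx2.

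The libraries differed in depth, and every EZH2 LOF library was shallower than every EZH2 WT library. Depth and genotype therefore cannot be told apart in these differences, and genes with few reads are the least certain. Whole reads recovered from the values summed to between 281847 and 1842891 over the listed genes in EZH2 LOF libraries, and to between 2763245 and 3685186 in EZH2 WT libraries. The size factors spanned 0.218 to 1.36 in EZH2 LOF and 1.80 to 2.64 in EZH2 WT libraries, with the lowest values in EZH2 LOF tumors 13 and 14. Per library, a member had a median of 102 reads in EZH2 LOF tumor 13 and of 891 in EZH2 WT tumor 3, and the smallest count was 9, in EZH2 LOF tumor 13 for both Arid3b and Cbx2. Over the 35 genes the normalized reads summed to 23368.5, 23170.5, 22709 and 23263 in EZH2 LOF tumors 13 to 16, against 13204, 12385 and 17499.5 in EZH2 WT tumors 1 to 3. All EZH2 LOF sums were above all EZH2 WT sums. The values were already divided by size factors and the genes were listed on this contrast, so nothing is read from that.

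Of 61 marker genes of tumor, brain and other cells, 10 were in the table, 1 higher and 9 lower in EZH2 LOF tumors. By sign, 48.9% of the whole table was higher. Among the markers of oligodendrocyte precursors, a cell type that PDGF-driven gliomas are known to resemble, Pdgfra, the receptor of the PDGF-B ligand, averaged 11124 ± 991 normalized reads in EZH2 LOF tumors (SD, n = 4) and 19149 ± 5787 in EZH2 WT tumors (SD, n = 3). Olig2 was also lower and Nkx2-2 higher. These 3, of 6 markers on that list, together summed to between 11386 and 13541 in EZH2 LOF tumors, against 17318 to 28665 in EZH2 WT tumors. Of the astrocyte markers 2 of 6 were in the table, and of the endothelial and mural cell markers 1 of 6. Of the mature oligodendrocyte markers and of the neuron markers, 2 of 7 each were in it. These 7 genes were all lower in EZH2 LOF tumors, and the rest of these lists have no value here. In contrast, 0 of 7 microglia and macrophage, 0 of 6 lymphocyte and 0 of 6 proliferation markers were in the table. In bulk tumors, fewer cells of a type and less RNA per cell cannot be told apart, and the part of the cell mixture in the differences below was not tested. No value of Ezh2 itself was analysed here, so the genotype was not checked on its own transcript.

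The methyltransferases of H3K4 had the largest median log2 fold change of any family with more than 2 members, 1.07, with 5 of the 9 genes on that list present and all 5 higher in EZH2 LOF tumors, by 1.84 to 2.84 times. Kmt2d (MLL4), which methylates H3K4 at enhancers, had 2498, 2537, 2216 and 2421 normalized reads in EZH2 LOF tumors 13 to 16, against 722, 549.9 and 1326 in EZH2 WT tumors 1 to 3. All EZH2 LOF tumors stood above all EZH2 WT tumors, and EZH2 WT tumor 3 was the closest of these. The ratio of the means was 2.79, with a log2 fold change of 1.58 ± 0.25 (SE, limma over all listed genes, 4 against 3 tumors). Set against EZH2 WT tumor 3 alone it was 1.82, and against the mean of the other EZH2 WT tumors 3.80. Setd1b, a catalytic subunit of a SET1 complex that methylates H3K4 at promoters, had 467, 375, 372 and 349 normalized reads in EZH2 LOF tumors, against 110.2, 94.4 and 208 in EZH2 WT tumors. This was the largest ratio of all 35 genes, at 2.84 (log2 fold change 1.58 ± 0.25), and again EZH2 WT tumor 3 lay nearest to the EZH2 LOF tumors.

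Setd1a, the paralog of Setd1b in the same kind of complex, had 357, 454, 370.0 and 390.0 normalized reads in EZH2 LOF tumors, against 162, 157 and 250.5 in EZH2 WT tumors. The groups were apart, at a ratio of 2.07 and a log2 fold change of 1.07 ± 0.18. Of its exon bases, 51.8% also belong to the overlapping gene Gm49388 on the same strand, so its level is uncertain. The ratio of Setd1a to Setd1b was 1.02 ± 0.193 in EZH2 LOF tumors and 1.45 ± 0.232 in EZH2 WT tumors (SD). Kmt2a (MLL1), which maintains Hox gene expression, averaged 1629 ± 109 normalized reads in EZH2 LOF and 884 ± 224 in EZH2 WT tumors, a log2 fold change of 0.91 ± 0.16. Its closest relative in the table, Kmt2b (MLL2), averaged 689.7 ± 64.1 in EZH2 LOF and 351 ± 127 in EZH2 WT tumors, a log2 fold change of 1.02 ± 0.20. For Kmt2b the EZH2 LOF tumors held 659.9, 786, 655 and 658, so that 3 of them agreed closely and tumor 14 stood above. Kmt2d and Kmt2a were thus unequal in their difference, with a Kmt2d to Kmt2a ratio of 1.49 ± 0.135 in EZH2 LOF tumors and of 0.945 ± 0.201 in EZH2 WT tumors.

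Of 14 partners of these enzymes in COMPASS complexes, 3 were in the table. Zfp335, a zinc-finger protein that works with H3K4 methyltransferase complexes in neural progenitors, was higher in EZH2 LOF tumors at 166 ± 22.2 normalized reads, against 108 ± 23.4 in EZH2 WT tumors, and Ncoa6 was higher as well. Wdr82, the subunit that ties SET1 complexes to RNA polymerase II, was lower, at 688 ± 19.8 in EZH2 LOF and 944 ± 29.9 in EZH2 WT tumors. The partners thus did not share 1 direction. Of 2 further histone methyltransferases in the table, both were higher in EZH2 LOF tumors, among them Dot1l, the methyltransferase of H3 lysine 79, at 869.6 ± 83.2 normalized reads against 334 ± 161 in EZH2 WT tumors.

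**Figure D2:**
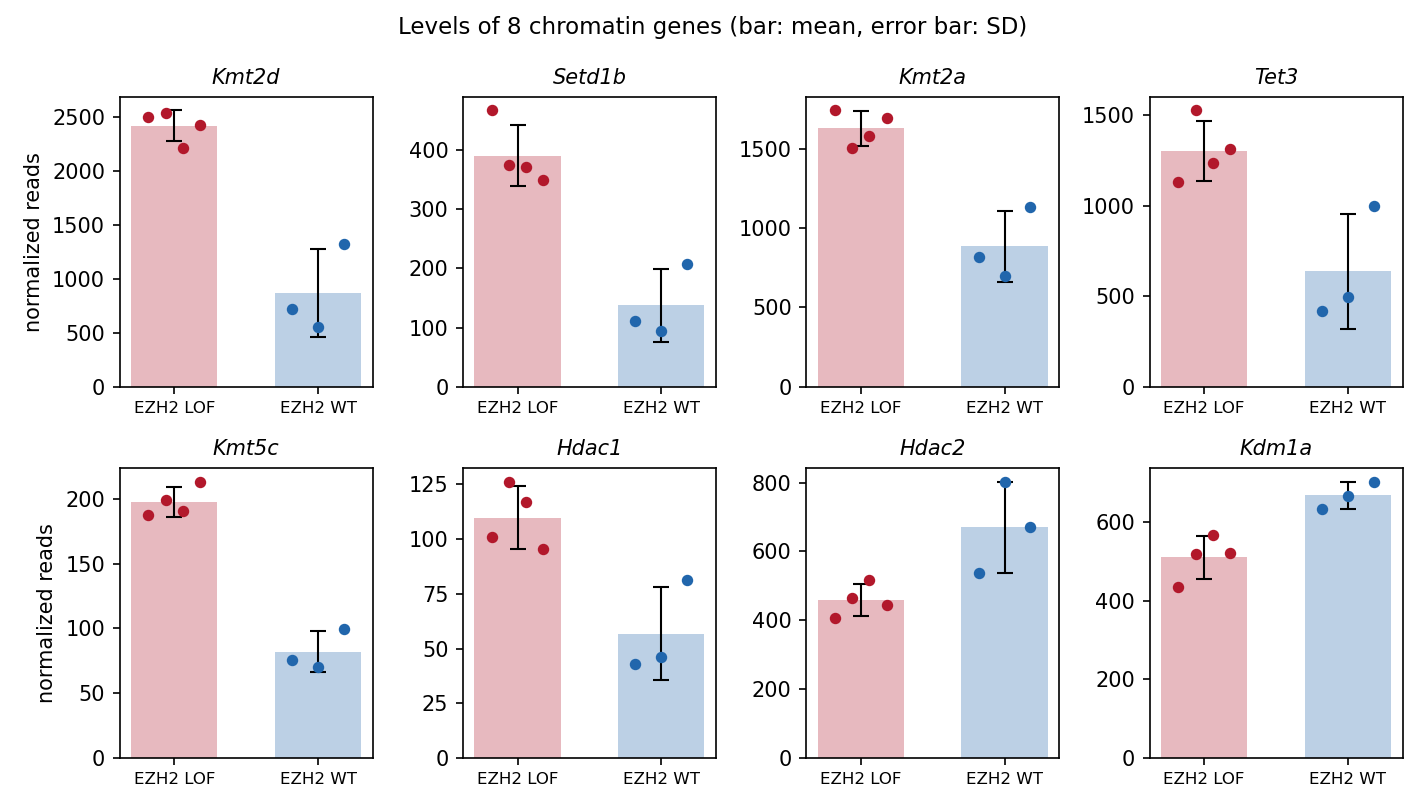
Normalized reads of 8 chromatin genes, with EZH2 LOF on the left (red, 4 tumors in the order 13 to 16) and EZH2 WT on the right (blue, 3 tumors in the order 1 to 3). Bars are means, error bars SDs and points tumors. For Kmt2d, Setd1b, Kmt2a, Tet3 and Hdac1 the third EZH2 WT tumor stands above the others, and Hdac2 and Kdm1a are lower in EZH2 LOF tumors.

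Kmt5c, a SET-domain enzyme that trimethylates H4 lysine 20 in heterochromatin, was the one other member of its class. It had 188, 199, 191 and 213 normalized reads in EZH2 LOF tumors, against 75.7, 70.2 and 99.9 in EZH2 WT tumors. The groups were far apart, with a coefficient of variation of 5.83% in EZH2 LOF and 19.3% in EZH2 WT tumors, and the log2 fold change of 1.28 ± 0.17 corresponds to a ratio of 2.41. Even against EZH2 WT tumor 3 alone the ratio was 1.98.

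The histone deacetylases moved in both directions, with 4 of 5 listed genes higher in EZH2 LOF tumors and 1 lower. Hdac1 and Hdac2 are close paralogs that share the NuRD, Sin3 and CoREST corepressor complexes. Hdac2 had 408, 465, 517 and 444 normalized reads in EZH2 LOF tumors, against 537, 802 and 672 in EZH2 WT tumors. The highest EZH2 LOF tumor lay just under the lowest EZH2 WT tumor, at a ratio of 0.684 and a log2 fold change of -0.53 ± 0.15. Hdac1 had 101, 126, 117 and 95.4 in EZH2 LOF tumors, against 42.9, 46.3 and 81.2 in EZH2 WT tumors, a log2 fold change of 0.99 ± 0.25. The ratio of Hdac2 to Hdac1 was 4.20 ± 0.427 in EZH2 LOF tumors and 12.7 ± 4.54 in EZH2 WT tumors. Because Hdac2 was the more abundant, the sum of both was still lower in EZH2 LOF tumors, at 568 ± 55.5 normalized reads against 727 ± 136 in EZH2 WT tumors. The tumors of the groups overlapped in this sum. Of the 50-base words of Hdac1, 35.3% occur in other annotated genes such as Gm10093, so how the counting treated reads shared with those copies affects its level.

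The other deacetylases were all higher in EZH2 LOF tumors, by smaller ratios than Hdac1. Hdac7, a class IIa enzyme that acts mainly as a corepressor scaffold, had 188, 186, 192 and 199 normalized reads in EZH2 LOF tumors, against 128, 69.8 and 135 in EZH2 WT tumors. Its EZH2 LOF tumors were nearly equal, and its log2 fold change was 0.84 ± 0.22. Hdac4, of the same class, averaged 379 ± 9.21 in EZH2 LOF and 287 ± 18.2 in EZH2 WT tumors, and 22.4% of its exon bases lie opposite an antisense gene. Sirt7, a nuclear NAD-dependent deacetylase, averaged 153 ± 28.9 in EZH2 LOF and 96.1 ± 16.9 in EZH2 WT tumors.

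Of 23 NuRD, Sin3 and CoREST partners, 3 were in the table, with Phf21a and Rcor3 of the CoREST group higher in EZH2 LOF tumors. Phf21a (BHC80), which binds unmethylated H3K4, averaged 392 ± 43.5 in EZH2 LOF and 277 ± 16.9 in EZH2 WT tumors. Tbl1xr1, a subunit of corepressor complexes, was lower, at 802 ± 67.4 normalized reads in EZH2 LOF and 1024 ± 61.1 in EZH2 WT tumors.

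Of 17 lysine demethylases looked up, 3 were members. Kdm1a (LSD1), the H3K4 demethylase of the CoREST complex, had 435, 518, 568 and 520.0 normalized reads in EZH2 LOF tumors, against 633, 667 and 703 in EZH2 WT tumors. Each EZH2 LOF tumor was below each EZH2 WT tumor, and the log2 fold change was -0.39 ± 0.12, a ratio of 0.765. Kdm2b, which recruits a variant PRC1 to unmethylated CpG islands, had 394, 278, 224 and 253 in EZH2 LOF tumors, against 177, 189 and 223 in EZH2 WT tumors. Its groups were apart by less than the spread within either, with EZH2 LOF tumor 15 next to EZH2 WT tumor 3. Kdm3b, an H3K9 demethylase, had the smallest log2 fold change in size of all 35 genes, 0.30 ± 0.11, with 642, 617, 673 and 599.9 in EZH2 LOF tumors, against 498, 473 and 576 in EZH2 WT tumors. Of its exon bases, 24.6% lie opposite an antisense gene.

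Of 7 enzymes of DNA methylation and its removal, 3 were members, and these 3 were higher in EZH2 LOF tumors. Tet3, a dioxygenase that oxidizes 5-methylcytosine, had 1132, 1527, 1236 and 1316 normalized reads in EZH2 LOF tumors, against 418, 493 and 999.8 in EZH2 WT tumors. EZH2 WT tumor 3 had more than both other EZH2 WT tumors together, and the ratio of 2.05 (log2 fold change 1.13 ± 0.26) was 1.30 against that tumor and 2.86 against the others. Tet2, its paralog, had 715, 561, 664 and 704 in EZH2 LOF tumors, against 459, 397 and 461 in EZH2 WT tumors, with the EZH2 WT tumors close together. Its log2 fold change was 0.59 ± 0.13. Dnmt3a, the de novo DNA methyltransferase, averaged 1404 ± 68.7 in EZH2 LOF and 1053 ± 129 in EZH2 WT tumors, at 0.42 ± 0.12. Dnmt3b, the other de novo enzyme, lay just outside the minimum of 10, with 36.7, 30.0, 34.6 and 25.05 normalized reads in EZH2 LOF tumors, against 10.02, 11.4 and 6.21 in EZH2 WT tumors, an EZH2 WT mean of 9.20. The member just inside it was Arid3b, with an EZH2 WT mean of 22.9. Of 18 readers of DNA methylation and heterochromatin proteins, 3 were higher and 1 lower in EZH2 LOF tumors. Mbd6, a protein of the methyl-CpG binding domain family, averaged 259 ± 32.7 in EZH2 LOF and 79.98 ± 39.6 in EZH2 WT tumors, and Smchd1, which acts in X inactivation, was lower at 603 ± 59.4 against 781 ± 10.9.

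The chromobox proteins read methylated lysines, Cbx2, Cbx6 and Cbx8 within PRC1 and Cbx1 (HP1 beta) at H3K9 methylation. All 5 listed genes of 8 had the higher mean in EZH2 LOF tumors, by 1.30 to 2.05 times, and the groups overlapped for 2 of them. Cbx2 had 41.2, 70.7, 86.1 and 95.4 normalized reads in EZH2 LOF tumors, against 25.1, 35.3 and 47.1 in EZH2 WT tumors. The overlap came from EZH2 LOF tumor 13, whose value rests on 9 reads. The ratio was 2.05, with a log2 fold change of 0.99 ± 0.33, the largest standard error among the 35 genes. Cbx1 had 330.0, 236, 293 and 307 in EZH2 LOF tumors, against 241, 208 and 223 in EZH2 WT tumors, so that tumor 14 of the EZH2 LOF group fell within the EZH2 WT range. Its log2 fold change was 0.37 ± 0.15.

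Cbx8 had 110.0, 89.9, 65.5 and 68.0 normalized reads in EZH2 LOF tumors, against 53.5, 48.9 and 50.7 in EZH2 WT tumors. The shallow EZH2 LOF tumors 13 and 14 were its highest, and without them its log2 fold change was 0.38, against 0.67 with all tumors. Cbx2 and Cbx8 are neighbours on chromosome 11, between positions 119023021 and 119040913 of mm10, a span of 17.9 kb. Cbx6, on chromosome 15, had 637, 865, 731 and 775 in EZH2 LOF tumors, against 634, 503 and 593 in EZH2 WT tumors, and its lowest EZH2 LOF tumor, at 637, was next to its highest EZH2 WT tumor, at 634.

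Other Polycomb genes were counted beside these readers, where 48.9% of the whole table was higher in EZH2 LOF tumors by sign. Of 24 genes of PRC1, BAP1 and ASXL, 12 were in the table, 10 higher and 2 lower in EZH2 LOF tumors. L3mbtl1, a Polycomb-group reader of methylated histones, had the largest ratio at a very low level, 18.98 ± 11.5 normalized reads in EZH2 LOF and 5.21 ± 2.06 in EZH2 WT tumors, whereas Yaf2 of variant PRC1 was lower, at 190.2 ± 9.29 against 252 ± 12.99. Of 11 genes of PRC2 and H3K27 demethylation, 4 were in the table and all were higher in EZH2 LOF tumors. Kdm6b, an H3K27 demethylase, averaged 634 ± 65.1 in EZH2 LOF and 268 ± 182 in EZH2 WT tumors, where tumor 3 had 478 and the others 154 and 172. Its ratio of 2.37 was 3.89 without EZH2 WT tumor 3 and 1.33 against that tumor alone. The PRC2 accessory subunits Phf1, Phf19 and Jarid2 were the others.

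The remodelers of the CHD family slide nucleosomes, and 3 of 10 were listed. Chd7, which is needed in neural and oligodendrocyte progenitors, had 2094, 1846, 1959.8 and 2138 normalized reads in EZH2 LOF tumors, against 1216, 1029 and 1386 in EZH2 WT tumors. It was well separated, at a log2 fold change of 0.74 ± 0.13. Chd5, a neuronal NuRD helicase, had 435, 413, 296 and 379 in EZH2 LOF tumors, against 317, 221 and 198 in EZH2 WT tumors. The groups overlapped through EZH2 LOF tumor 15 and EZH2 WT tumor 1, and EZH2 WT tumor 3 was here the lowest of its group. Chd2 had 692, 677, 744 and 774 in EZH2 LOF tumors, against 488, 517 and 618 in EZH2 WT tumors, at 0.42 ± 0.12. All its EZH2 LOF tumors were above its EZH2 WT tumors, and 18.4% of its exon bases are shared with 1810026B05Rik on the same strand.

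Arid1a, the DNA-binding subunit of the canonical BAF (SWI/SNF) complex, was the one SWI/SNF member among 14 genes on that list. It had 999, 974, 1027 and 1029 normalized reads in EZH2 LOF tumors, against 535, 498 and 885 in EZH2 WT tumors. The EZH2 LOF tumors were nearly equal, and EZH2 WT tumor 3 reached 88% of their mean. Its log2 fold change was 0.70 ± 0.18. Ep400, the helicase of the Tip60 complex, had 1361, 1298, 1311 and 1316 in EZH2 LOF tumors, against 878, 863 and 1210.4 in EZH2 WT tumors, at 0.44 ± 0.14. For Ep400 as for Arid1a the highest EZH2 WT tumor came near the lowest EZH2 LOF tumor. Ino80d, a subunit of the INO80 remodeler, had 591, 516, 606 and 547 in EZH2 LOF tumors, against 372, 322 and 471 in EZH2 WT tumors, at 0.56 ± 0.14. Of 33 partners in BAF, ISWI and INO80 complexes, 10 were higher and 1 was lower in EZH2 LOF tumors. Bcl11a, a BAF-associated zinc-finger protein of neurons and blood, had the largest ratio among them, at 60.2 ± 22.6 normalized reads in EZH2 LOF and 11.5 ± 5.69 in EZH2 WT tumors, and Ss18 was the lower one, at 366 ± 37.7 against 543 ± 9.68.

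Brd8, a bromodomain protein of the Tip60 complex that binds acetylated histones, had 738, 645, 712 and 699 normalized reads in EZH2 LOF tumors, against 501, 513 and 509 in EZH2 WT tumors. Its EZH2 WT tumors were almost the same, and its log2 fold change of 0.46 had the smallest standard error of the 35 genes, 0.10. Kat6b, a histone acetyltransferase of the MOZ/MORF complex, had 499.5, 465, 552 and 484 in EZH2 LOF tumors, against 346, 311 and 338 in EZH2 WT tumors, at 0.59 ± 0.11, with the groups well apart. Of 35 partners of acetyltransferases, 6 were higher and 1 lower in EZH2 LOF tumors. Brpf3, a scaffold of such complexes, averaged 249.2 ± 30.6 in EZH2 LOF and 115 ± 31.3 in EZH2 WT tumors, and Jade3 was lower at 50.6 ± 9.10 against 73.5 ± 5.88.

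The remaining DNA-binding members had low levels. Arid5a, an ARID protein that also stabilizes RNA of inflammatory genes, had 206, 146, 200.1 and 218 normalized reads in EZH2 LOF tumors, against 86.9, 79.3 and 101 in EZH2 WT tumors, at a log2 fold change of 1.09 ± 0.19. Arid3b had 41.2, 60.0, 54.4 and 52.5 in EZH2 LOF tumors, against 29.5, 20.1 and 19.1 in EZH2 WT tumors, at 1.16 ± 0.26. Prdm11, a PR-domain protein, had 147, 116, 90.5 and 122 in EZH2 LOF tumors, against 61.8, 59.9 and 56.9 in EZH2 WT tumors, at 0.96 ± 0.20. The groups were separate for all 3 genes, and for Arid3b and Prdm11 EZH2 WT tumor 3 was the lowest of its group. Of 8 arginine methyltransferases, 0 were in the table, and they were not analysed here. Among 31 methyl-lysine readers and elongation factors, 7 were higher and 3 lower in EZH2 LOF tumors, with the elongation scaffold Aff4 among the lower ones, at 1503 ± 141 normalized reads against 2234 ± 185 in EZH2 WT tumors, and the histone chaperone regulator Cabin1 among the higher, at 665 ± 49.2 against 408 ± 86.5. Over all the partner lists, 56 of 205 genes were in the table, 46 higher and 10 lower, where 48.9% of the whole table was higher by sign. The share of all measured genes that entered the table is not known here. The number of listed partners is therefore not read as a result.

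Levels were compared between genes as normalized reads per kb of merged exons. In EZH2 WT tumors the highest were Hdac2 at 149.8, Kdm1a at 129 and Chd7 at 87.8, so that the genes lower in EZH2 LOF tumors were the most abundant of the 35 in EZH2 WT tumors. In EZH2 LOF tumors Chd7 had 146, Kmt2d 121 and Hdac2 102 per kb, which were not the highest of all 35. The lowest in both groups was Arid3b, at 6.52 per kb in EZH2 LOF and 2.87 in EZH2 WT tumors.

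EZH2 WT tumor 3 took part in many of these patterns. It was the highest EZH2 WT tumor for 26 of the 35 genes (74.3%) and for 35.3% of all listed genes, or 57.6% of the listed genes that were higher in EZH2 LOF tumors. Its value was more than 1.5 times the mean of the other EZH2 WT tumors for 10 of the 35 genes. The same held for 359 of all 3533 listed genes and for 327 of the 1727 that were higher in EZH2 LOF tumors. On the way from the mean of EZH2 WT tumors 1 and 2 to the EZH2 LOF mean, tumor 3 stood at a median of 37.7% for the 35 genes and of 22.7% for the table. For 11 of the 35 genes it stood beyond the middle of that way. It did so for 716 of all 3533 listed genes and for 239 of the 1727 that were higher in EZH2 LOF tumors. Among the members, Ep400 stood at 75.4%, Arid1a at 75.1% and Tet3 at 64.3%. For Brd8, at 0.814%, and Kat6b, at 5.55%, tumor 3 was like its group, and at the far end it lay on the other side of it, with Arid3b at -20.8%, Kdm1a at -38.1% and Chd5 at -63.5%. Without EZH2 WT tumor 3, 33 genes were still higher in EZH2 LOF tumors and the median log2 fold change was 0.79.

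**Figure D3:**
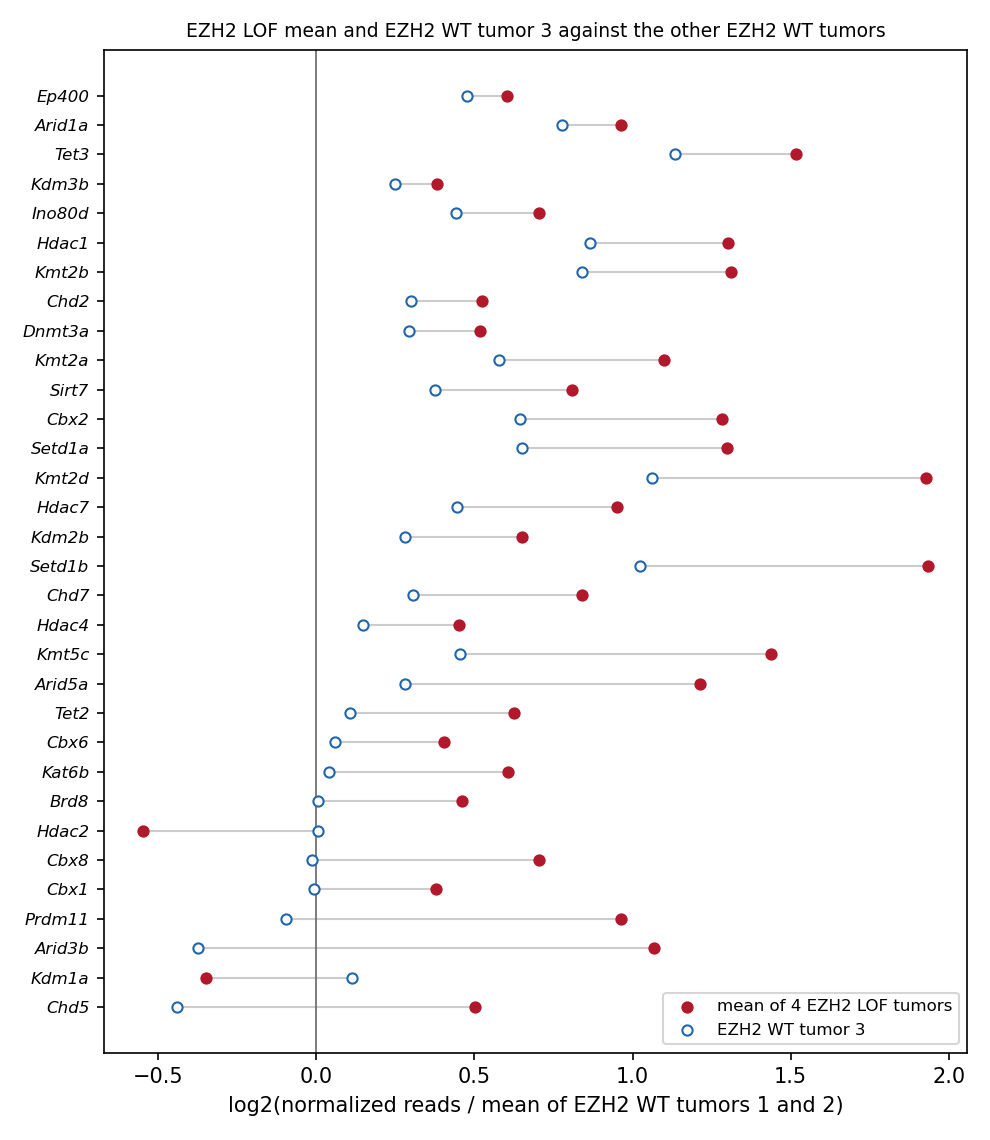
The mean of the 4 EZH2 LOF tumors (filled red) and EZH2 WT tumor 3 (open blue), each as the log2 ratio to the mean of EZH2 WT tumors 1 and 2, for 32 chromatin genes, sorted by how far tumor 3 stood towards the EZH2 LOF mean. Ep400 and Arid1a, at 75.4% and 75.1% of the way, are at the top, and Chd5, where tumor 3 lies on the other side of the zero line, at the bottom.

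The spread within groups was compared by the coefficient of variation. The coefficient of variation had a median of 9.97% over the 35 genes in the EZH2 LOF tumors and of 19.3% in the EZH2 WT tumors, and it was the smaller one in EZH2 LOF tumors for 22 of 35 genes (62.9%), near the share of 58.4% over the table. Over the table the medians were 14.02% in EZH2 LOF and 17.5% in EZH2 WT tumors. Ep400, Hdac4, Arid1a and Hdac7 varied least among EZH2 LOF tumors, at 2.09%, 2.43%, 2.58% and 3.00%. These are the smallest of 35 values, and some rest on few reads, such as 41 for Hdac7 in EZH2 LOF tumor 13. No evenness between tumors is read from them. Cbx2, at 32.3%, Kdm2b, at 25.9%, and Cbx8, at 25.1%, varied most.

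The members are long and rich in G and C. Their merged exons had a median length of 10.6 kb, against 5.15 kb in the table, and their transcripts a median GC content of 53.4%, against 49.7% in the table. The listed genes higher in EZH2 LOF tumors, to which 33 of the 35 belong, had the same median GC content of 53.4%. Across the 35 genes the log2 fold change went with GC content (Pearson's r = 0.62, Spearman's rho = 0.62), and across the 3439 listed genes with a GC value it did so too (r = 0.35, rho = 0.36). Within the listed genes higher in EZH2 LOF tumors the relation was weak (r = 0.04, rho = 0.10), as it was within those lower (r = -0.03, rho = -0.04), whereas over the 33 members that were higher it was r = 0.56 and rho = 0.59. These are descriptions across genes, which share the same 7 libraries and are not independent. With exon length the rank correlation was -0.02 over the 35 genes and 0.19 over the table. Kmt5c and Kmt2b, both higher in EZH2 LOF tumors, had 59.99% and 59.1% GC, and the lowest content was that of Hdac2, at 41.9%, while Kdm1a, the other gene lower in EZH2 LOF tumors, had 51.7%.

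In classes of GC content the direction of the whole table shifted in the same way. Of listed genes under 45% GC, 24.1% were higher in EZH2 LOF tumors, as were 38.5% of those at 45 to 50%, 51.8% of those at 50 to 55% and 78.8% of those over 55%. Members over 55% GC numbered 14 and had a median log2 fold change of 1.01, against 0.75 for all listed genes of that class. The 13 members at 50 to 55% had a median of 0.67, against 0.38, and the 6 members at 45 to 50% had 0.52, against -0.47. The ratio of EZH2 WT tumor 3 to the other EZH2 WT tumors also went with GC content, with a Spearman's rho of 0.41 over the 35 genes and of 0.32 over 3433 listed genes. The part of GC content in the differences between groups was not tested.

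**Figure D4:**
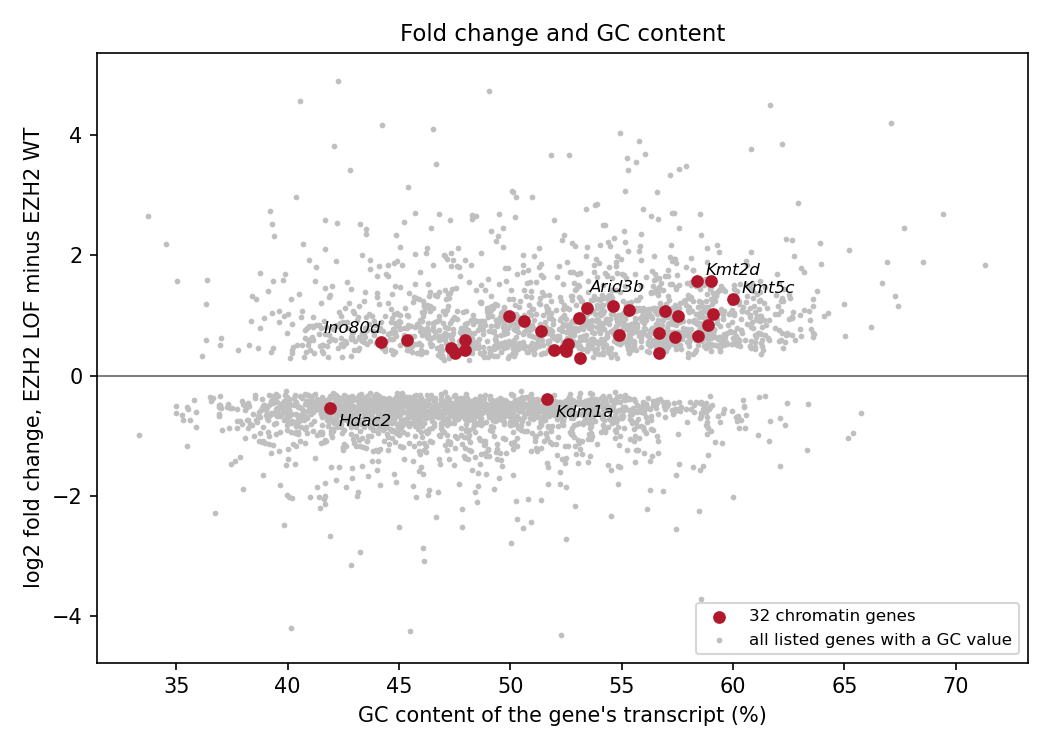
The log2 fold change, EZH2 LOF minus EZH2 WT, against the GC content of the gene's transcript in percent, for 32 chromatin genes (red) and for all listed genes with a GC value (grey). Only called genes are listed, and a band around 0 is empty. The red points lie higher towards the right, where Kmt5c stands at 59.99% GC, and Hdac2, at 41.9%, lies below 0.

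Promoters were read for 22 members whose RefSeq start (GRCm38.p6) lay within 500 bases of the gene start. In the 250 bases upstream, these held a median of 24 CpG dinucleotides, against 6 over 32851 RefSeq promoters, with a range from 6 in Hdac7 to 51 in Tet2. The letters GGGCGG, the core of a GC box, occurred on either strand in 17 of the 22 (77.3%), against 32.7% of all promoters. The letters TATAAA occurred in 0 of 22, against 12.4%, CCAAT in 8 (36.4%), against 33.8%, and CCGGAA, the core of ETS sites, in 2 (9.09%), against 12.03%. Where one of these was not found, the window of 250 bases lacks those letters and no more is meant. The promoters of other listed genes were not compared, so none of these contents is shown to be particular to the members. The promoters of 2 genes higher and 2 genes lower in EZH2 LOF tumors are shown for their similar density of CpG, which is in capitals. They run 5′ to 3′ on the gene's strand and end at the base before the annotated start. Kmt2d is read from the minus strand at chr15:98871206-98871455 with 26 CpG, Setd1a from the plus strand at chr7:127777139-127777388 with 25, Hdac2 from the plus strand at chr10:36974294-36974543 with 27, and Kdm1a from the minus strand at chr4:136602724-136602973 with 21.
Kmt2d: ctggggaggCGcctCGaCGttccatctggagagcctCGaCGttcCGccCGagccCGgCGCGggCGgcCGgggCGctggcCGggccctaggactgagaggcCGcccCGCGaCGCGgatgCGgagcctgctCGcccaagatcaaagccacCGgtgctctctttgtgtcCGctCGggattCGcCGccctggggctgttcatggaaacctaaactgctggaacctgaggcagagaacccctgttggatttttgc
Setd1a: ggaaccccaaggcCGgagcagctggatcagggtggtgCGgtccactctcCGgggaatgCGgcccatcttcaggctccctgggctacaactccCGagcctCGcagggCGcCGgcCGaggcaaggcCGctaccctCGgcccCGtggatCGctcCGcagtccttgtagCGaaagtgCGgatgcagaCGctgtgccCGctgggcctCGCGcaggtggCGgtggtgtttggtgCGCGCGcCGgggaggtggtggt
Hdac2: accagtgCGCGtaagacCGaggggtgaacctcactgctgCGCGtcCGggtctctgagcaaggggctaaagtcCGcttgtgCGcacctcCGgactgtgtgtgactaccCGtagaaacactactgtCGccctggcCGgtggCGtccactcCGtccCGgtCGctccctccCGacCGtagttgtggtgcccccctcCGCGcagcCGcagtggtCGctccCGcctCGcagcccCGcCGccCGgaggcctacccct
Kdm1a: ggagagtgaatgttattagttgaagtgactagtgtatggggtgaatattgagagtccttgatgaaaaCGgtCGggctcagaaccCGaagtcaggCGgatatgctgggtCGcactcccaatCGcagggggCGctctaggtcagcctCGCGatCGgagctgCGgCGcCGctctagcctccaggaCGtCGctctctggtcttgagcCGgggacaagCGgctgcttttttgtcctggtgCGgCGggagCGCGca
Kmt2d and Hdac2 hold GGGCGG or its complement in these bases, and Kdm1a holds CCAAT or its complement. The genes lie on 15 chromosomes, with at most 5 on one (chromosomes 4 and 11). In mm10, Kmt2d spans 98831669 to 98871205 on chromosome 15, Setd1b 123142193 to 123168630 on chromosome 5, Hdac2 36974544 to 37001888 on chromosome 10 and Kdm1a 136550533 to 136602723 on chromosome 4, and the reads of each gene were counted over all its annotated exons.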

How the data were processed

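Total RNA of flash-frozen tumors was depleted of ribosomal RNA, made into stranded libraries and sequenced in single reads of 50 bases. By the study's methods and the processing notes, Trim Galore trimmed the reads, STAR placed them on mm10, HTSeq counted them over Ensembl genes and DESeq2 compared the groups. No source used here gives the strand setting of the counting. The signal values that the authors deposited are gene counts divided by a size factor per library, for called genes only. The authors' fold changes, Wald statistics and p-values, which are also in the tables, were not used. Of 3553 lines, repeats of 19 gene identifiers were dropped, leaving 3533 genes. Groups and tumor numbers came from the sample titles. Values were whole multiples of 1 step per library in 100% of genes (tolerance 0.001 reads), which gave back reads. This was checked in the 7 libraries of the loss-of-function experiment and not in those of the gain-of-function experiment.

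Log2(value + 1) was fitted over all listed genes with limma (version 3.58.1, R 4.3.3) with a variance trend, and estimates with SEs are reported. The fit was tested on simulated data. Lengths, GC content and shared 50-base words came from GENCODE M21 and promoters from RefSeq. Alternatives were pseudocounts of 0.5 and 5, TMM scaling, edgeR (version 4.0.16) and DESeq2 (version 1.42.0) on recovered reads, each tumor left out, EZH2 LOF tumors 13 and 14 left out, and minimum means of 50 and none. The members, families, partner lists and marker lists were chosen with earlier results of these data known. Values per tumor are given for up to 2 higher and 2 lower non-overlapping genes of each family with the largest differences, for genes with overlapping groups, for the largest and smallest differences of all members, for those nearest the minimum mean and for the highest levels per length. A partner list has its largest difference in each direction as the example. Other genes with values per tumor were chosen after their values were seen. Some genes that this rule would name are not reported here, though they stay in counts and medians over all 35 members.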

Additional observations from a re-analysis of the deposited data

Results flagged for a closer look

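Kmt2b had 785.8 normalized reads in EZH2 LOF tumor 14, against 655 to 659.9 in the other EZH2 LOF tumors. Its gap to the nearest of these was 0.96 of the range of the group, above the 95% critical value of Dixon's test for 4 samples. This was the only one of 35 genes so marked among EZH2 LOF tumors, and chance marks about 1 group in 20. All EZH2 LOF tumors were above the EZH2 WT tumors for Kmt2b, and leaving out tumor 14, the highest, could not change that.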

How the results depend on the processing

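The number of genes higher in EZH2 LOF tumors was 33 under pseudocounts of 0.5 and 5, TMM scaling, edgeR and DESeq2 on recovered reads, and with any tumor, or tumors 13 and 14 together, left out. It was 31 of 33 genes with a minimum mean of 50 and 34 of 36 with no minimum. Genes whose groups did not overlap numbered 31 to 34 over all alternatives and 32 to 34 with 1 tumor left out. The median log2 fold change lay between 0.55 (without EZH2 WT tumor 2) and 0.79 (without EZH2 WT tumor 3) with 1 tumor left out, and between 0.64 and 0.70 otherwise. Of 455 values of single genes under 13 alternatives, 0 changed sign, and 1 moved by more than its spread between tumors, that of Cbx8 at 0.38 without EZH2 LOF tumors 13 and 14. No paired analysis was possible because EZH2 LOF and EZH2 WT tumors share no replicate number. All EZH2 LOF libraries were shallower than all EZH2 WT libraries, so depth and genotype cannot be told apart. Depth also limits the genes with few reads. Genes outside the deposited table were not analysed here, so the counts describe called genes. Those called genes also fix the direction of each difference in advance, and agreement between the alternatives is no further support.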
